A study of Mus musculus with 6 samples.

Results

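Aminoacyl-tRNA synthetases join each amino acid to its transfer RNA, and their genes were followed here in 10T1/2, a mouse embryonic fibroblast line known for its ability to form muscle, fat and skeletal cells under suitable treatment. The set holds 36 genes, 20 for cytosolic enzymes and 16, with names ending in 2, for mitochondrial ones, of 18194 genes measured in all. The genes were picked by name from textbook knowledge, after the signals of the cytosolic ones had been seen to be high in 1 of the 3 samples. That pattern is therefore a description, with no test. Every probe set that the platform annotation gives to exactly 1 gene of the set was used, which gave 73 probe sets for 35 genes. Dars had no such probe set and was not analysed here. Mars is listed as Mars1 in the annotation and was matched through a RefSeq synonym.

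The study holds 1 group. Unmodified 10T1/2 cells, grown in DMEM with 10% fetal bovine serum, were collected at 80% confluency, and no genotype, treatment or time course is given. RNA of samples 1, 4 and 5 was put on 1 MOE430A and 1 MOE430B array each, 6 arrays in all. Per the labels, the data were meant for removing genes held in common with stem cells from stem cell profiles, and the samples were the 3 judged best. Whether samples 1, 4 and 5 came from separate cultures is not stated, and their spread may be technical.

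Cells keep 2 sets of these enzymes. The cytosolic set serves ribosomes that read nuclear messages, and the mitochondrial set, also encoded in the nucleus and imported, serves ribosomes inside mitochondria. Gars and Kars each encode both forms, and Eprs encodes a fused enzyme for glutamate and proline. Several cytosolic synthetases sit in a multisynthetase complex held together by the scaffold proteins of Aimp1, Aimp2 and Eef1e1. When amino acids run short or proteins misfold, kinases of the factor eIF2 slow most translation but favour that of Atf4, a transcription factor that is known to turn on genes of amino acid supply, many cytosolic synthetases among them.

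The arrays differed in ways that touch these results. Each was scaled on its own by the authors, to a mean, with 2% trimmed at each end, of 1501 for MOE430A and 1500 for MOE430B. A background limit was taken on each array from genes restricted to tissues far from fibroblasts, and was 1360, 1493 and 965 on MOE430A and 1680, 1336 and 1649 on MOE430B in samples 1, 4 and 5. Only 8 probe sets set it on MOE430B. The ratio of 3' to 5' signal of Gapdh, which is higher in broken or shortened RNA, was 24.7, 15.0 and 10.6 on MOE430A and 23.4, 14.0 and 11.5 on MOE430B in the same order. That of beta-actin was 17.5, 9.57 and 8.68 on MOE430A and 20.2, 8.23 and 10.8 on MOE430B. Sample 1 thus had the highest ratios. The MOE430A array of sample 5 was washed on fluidics station 2 and the other 5 arrays on station 1, so on MOE430A this sample and its station cannot be told apart. All 12 fibroblast markers were measured on MOE430A, and 12, 11 and 11 lay above the limit in samples 1, 4 and 5. Their summed signal was 439096, 465073 and 199139. Of 18 markers of leukocytes, endothelium, epithelium, nerve, muscle and fat, 1, 0 and 1 lay above the limit, with sums of 5979, 6464 and 4153, and none was listed at 0. On MOE430B 2 of 5 such markers did in each sample, Epcam and Map2, and the sums were 34187, 144077 and 32064, mostly from an Epcam probe set ending in _x_at. The Epcam probe set of MOE430A read 47.4, 39.1 and 39.5, far below the limit. How far RNA quality, station or markers account for the values below was not tested.

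Cytosolic synthetase genes had their highest signal in sample 5. On MOE430A this held for all 18 measured genes, where sample 5 was the highest of 3 for 29.0% of all measured genes. Each gene is given by its probe set of highest mean log2 signal. The difference of a sample is its log2 signal minus the mean log2 signal of the other 2. In sample 5 its median over the 18 genes was 1.25, which is 2.39-fold, and -0.11 over all 12394 measured genes. At least 1.5-fold higher in sample 5 were 16 of the 18, against 20.1% of all measured genes. Of the 18, 14 had a mean log2 signal above that of the limits, and 12 of these passed 1.5-fold, against 17.8% of all genes kept by this filter. Because the signals of sample 5 enter that mean, the filtered count is given for completeness. In these bulk samples, more RNA per cell and more cells with high levels cannot be told apart.

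**Figure D1:**
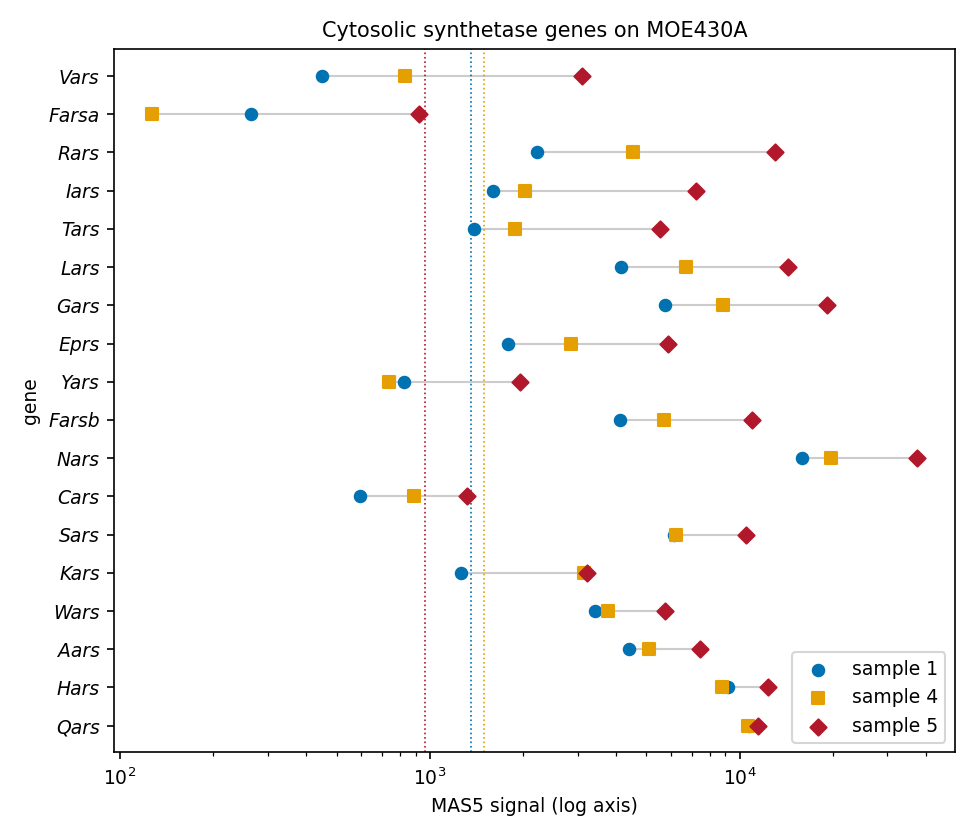
MAS5 signal on a log axis of the 18 cytosolic synthetase genes measured on MOE430A, 1 point per sample, sorted by the log2 difference of sample 5. Dotted lines are the background limits of the arrays in the colours of their samples; sample 5 lies rightmost in all 18 rows, by little for Qars and Kars and by far for Vars and Farsa.

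Sample 1 stood at the other end. It was the lowest of 3 for 14 of the 18 genes, and in sample 4 lay the lowest values of the other 4, Farsa, Hars, Qars and Yars. Sample 1 lowest together with sample 5 highest was the order of 14 of 18 genes and of 16.4% of all measured genes. Of the 3595 measured genes that were highest in sample 5, 2032 had sample 1 lowest. At least 1.5-fold lower in sample 1 were 11 of 18, against 19.9% of all measured genes. The median difference was -0.90 in sample 1 and -0.25 in sample 4. Against sample 4 alone, the median of sample 5 was 0.99, and against sample 1 alone 1.38. The difference of sample 1 is partly taken from sample 5, where these genes were picked as high. The counts for sample 1 thus partly restate that choice. With sample 5 left out, the median of sample 1 against sample 4 was -0.39.

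Of the synthetases of the multisynthetase complex, 6 were measured on MOE430A. Their median difference in sample 5 was 1.41, and 1.12 for the 12 genes outside the complex, a grouping added after the values had been seen. The arginine enzyme gene Rars read 2223, 4518 and 12972 in samples 1, 4 and 5, which is 4.09-fold higher in sample 5 than in the mean of the others. Isoleucine's Iars read 1595, 2026 and 7242, 4.03-fold higher in sample 5. In Iars, samples 1 and 4 lay close together and far from sample 5, while in Rars the 3 samples were spread out with sample 4 between the others. Leucine's Lars read 4150, 6692 and 14296 (2.71-fold), and the fused Eprs 1792, 2865 and 5890 (2.60-fold). The 2 remaining genes of the complex differed in pattern. The lysine gene Kars, which serves both compartments, read 1265, 3138 and 3220, so that samples 4 and 5 were alike and sample 1 was low. Glutamine's Qars read 10701, 10663 and 11455, a difference of 0.10 in sample 5, the smallest of the 18. It has no mitochondrial partner, since mitochondria make their glutamine tRNA by another route.

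Among the genes outside the complex, the valine gene Vars read 448, 833 and 3098, 5.07-fold higher in sample 5, where alone it was above the limit. The alpha subunit gene of the phenylalanine enzyme, Farsa, read 265, 127 and 923, below the limit on all 3 arrays, so its 5.03-fold difference is of signals not told from background. Its beta subunit gene Farsb read 4109, 5698 and 10941, 2.26-fold higher in sample 5 and above the limit on all arrays. The 2 subunits form 1 enzyme, and of their genes only Farsb was measured above the limit on MOE430A. Threonine's Tars read 1391, 1883 and 5530 (3.42-fold), and the glycine gene Gars, which also serves mitochondria, 5726, 8819 and 19139 (2.69-fold). Tyrosine's Yars read 824, 738 and 1962 (2.52-fold), above the limit in sample 5 only. All 3 genes were well apart from the other samples in sample 5.

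Smaller differences were found for the asparagine gene Nars, at 15894, 19784 and 37234 (2.10-fold), and the cysteine gene Cars, at 596, 892 and 1318 (1.81-fold, above the limit in sample 5 only). Serine's Sars read 6156, 6230 and 10483 (1.69-fold). In Sars samples 1 and 4 were almost equal. Just past 1.5-fold lay tryptophan's Wars, at 3404, 3768 and 5738 (1.60-fold), and alanine's Aars, at 4381, 5087 and 7446 (1.58-fold). Just short of it lay the histidine gene Hars, at 9188, 8760 and 12334 (1.37-fold). With Qars, Hars was 1 of the 2 genes that did not reach 1.5-fold.

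Several genes had more than 1 probe set, and these mostly had sample 5 highest, while samples 1 and 4 changed places in some. In Hars, sample 1 was lowest on the dimmer probe set, at 2582, 3740 and 4541, and sample 4 on the brighter. Of the 35 cytosolic probe sets of MOE430A, 33 were highest in sample 5, where 30.3% of all probe sets naming 1 gene were. The 2 exceptions were a dim probe set of Cars, at 161, 108 and 85.4, and 1 of 4 of Qars, at 3124, 3054 and 2862. All 4 probe sets of Wars, 4 of Farsb and 3 of Eprs were highest in sample 5. The size was less alike than the direction. Aars read 613, 1321 and 2624 on its dimmer probe set, a difference of 1.54 against 0.66 on the brighter, and the name of the brighter ends in _s_at, which marks probe sets that can match several transcripts. Iars gave 1.85 and 2.01 on its 2 probe sets and Nars 1.21 and 1.07.

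Promoters of the cytosolic genes are shown because Atf4 is known to bind a short composite element, the C/EBP-ATF response element. Its letters TGATGNAA were searched on both strands of RefSeq promoter windows of GRCm38.p6, from 250 bases before to 50 after the start. Of the 36 genes, 27 had a window. The letters were found in 5 of 13 cytosolic genes (38.5%), in 0 of 14 mitochondrial ones and in 4.51% of 27025 genes in all. In the lines below, the letters found are in capitals, on the strand of the gene, and for the first of these genes only the copy upstream of the start is shown.
Aars, chr8:111033690-111033748, plus strand: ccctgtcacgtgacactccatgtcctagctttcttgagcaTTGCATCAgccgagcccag
Gars, chr6:55037931-55037989, plus strand: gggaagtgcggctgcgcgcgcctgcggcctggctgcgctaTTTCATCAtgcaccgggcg
Iars, chr13:49682126-49682155, plus strand: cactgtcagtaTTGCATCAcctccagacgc
Tars, chr15:11399659-11399713, minus strand: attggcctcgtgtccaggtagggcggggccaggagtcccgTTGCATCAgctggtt
Yars, chr4:129189895-129189924, plus strand: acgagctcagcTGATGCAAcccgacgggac
Asns, chr6:7693214-7693272, minus strand: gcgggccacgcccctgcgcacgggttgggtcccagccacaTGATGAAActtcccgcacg

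In Aars, Gars and Tars the letters began 112, 30 and 15 bases before the start, and in Iars and Yars they began at bases 8 and 4 after it. Asns, the asparagine synthetase gene and a well-known Atf4 target, is shown for comparison. A match describes letters and not binding. No window was found for Cars, Hars, Lars, Nars, Rars, Vars and Wars, which were not searched. Their differences in sample 5 on MOE430A ran from 0.46 for Hars to 2.34 for Vars. On MOE430A, the 5 genes with the letters differed in sample 5 by 0.66 to 2.01, median 1.43. The 6 others with a window and measured there, Eprs, Farsa, Farsb, Kars, Qars and Sars, differed by 0.10 to 2.33, median 0.97. The value of 2.33 is that of Farsa, which was below the limit on all arrays. Yars, with the letters, was above the limit in sample 5 only. The ranges of the 2 groups overlapped between 0.66 and 2.01. Mars and Dars also had a window without the letters. Mars, measured on MOE430B only, differed there by 1.70 in sample 5, and Dars was not measured.

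MOE430B carried 4 cytosolic genes. The methionine gene Mars, of the multisynthetase complex, read 6546, 10859 and 27400 in samples 1, 4 and 5, 3.25-fold higher in sample 5. It was measured on this design only. Of the 4 genes, Mars alone had sample 1 lowest and sample 5 highest, the order of most genes on MOE430A. Wars read 4231, 3459 and 7027 (1.84-fold), with a probe set that is on both designs and gave 1097, 1314 and 1638 on MOE430A. Samples 1 and 4 thus changed places on it. Of the 100 probe sets on both designs, 70 had the same sign of the difference in sample 5. Farsa read 5481, 6788 and 5061, with sample 5 the lowest. That probe set was above the limit on all arrays and its order was the reverse of that on MOE430A. Eprs read 61.8, 347 and 106, all far below the limit. Thus 2 of 4 genes were at least 1.5-fold higher in sample 5, against 24.8% of all measured genes of MOE430B, and 2 of 4 were highest there, against 32.6%. The median difference of the 4 genes in sample 5 was 0.30, smaller than on MOE430A.

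Mitochondrial synthetase genes lay on both sides of 0 in sample 5. All 16 were measured, 8 on MOE430A and 10 on MOE430B, with Ears2 and Iars2 on both. On MOE430A 3 of 8 were at least 1.5-fold higher in sample 5, against 20.1% of all measured genes, and 1 was as much lower, against 26.4%. The median difference was 0.12. On MOE430B 1 of 10 was higher, against 24.8% of all measured genes, and 2 were lower, also against 24.8%, with a median of 0.07. The medians of sample 4 were larger, at 0.44 on MOE430A and 0.27 on MOE430B. Sample 4 was the highest of 3 for 5 of 8 genes on MOE430A, against 31.6% of all measured genes, and for 5 of 10 on MOE430B, against 32.1%. Low signals limit this: 1 of 8 passed the filter on MOE430A and 5 of 10 on MOE430B, so that the 2 sets of genes were not measured equally well.

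**Figure D2:**
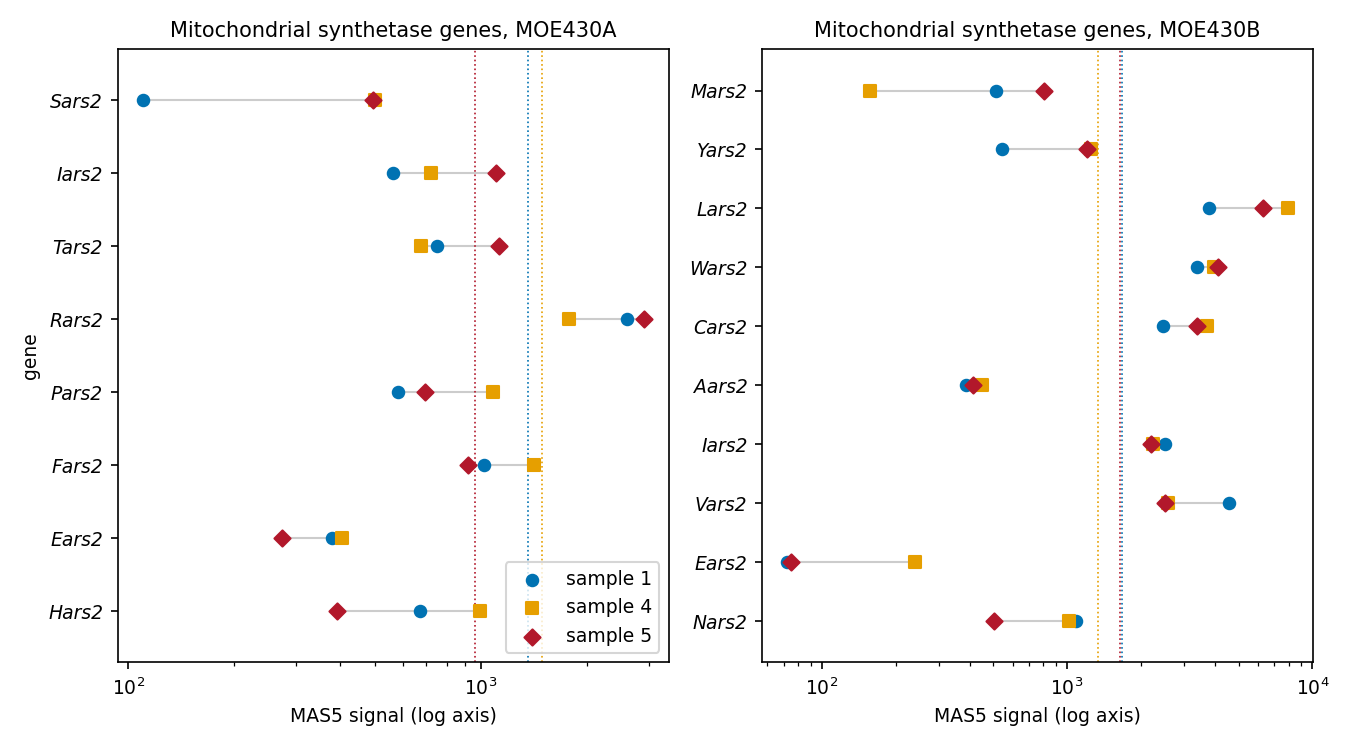
MAS5 signal on a log axis of the mitochondrial synthetase genes, 8 on MOE430A (left) and 10 on MOE430B (right), 1 point per sample, sorted by the log2 difference of sample 5. Dotted lines are the background limits; Rars2 on MOE430A and Cars2, Iars2, Lars2, Vars2 and Wars2 on MOE430B lie above them on all arrays, and sample 5 has no fixed place in the rows.

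The 6 genes above the limit on all arrays give the clearest view. The arginine gene Rars2, the only such gene on MOE430A, read 2605, 1781 and 2898 in samples 1, 4 and 5, a difference of 0.43 in sample 5. Tryptophan's Wars2 read 3374, 3965 and 4137 on MOE430B, and cysteine's Cars2 2459, 3711 and 3379. In none of these 3 did sample 5 lie 1.5-fold above the others. The leucine gene Lars2 read 3796, 7963 and 6314, highest in sample 4. Isoleucine's Iars2 read 2495, 2245 and 2189, and valine's Vars2 4584, 2581 and 2498. Both were highest in sample 1 and lowest in sample 5, with differences of -0.11 and -0.46 in sample 5.

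The other mitochondrial genes did not pass the filter and their differences are of weak signals. On MOE430A, Sars2 read 110, 501 and 493, Tars2 749, 678 and 1129, and Iars2 564, 723 and 1101, the 3 genes past 1.5-fold in sample 5. Tars2 and Iars2 were above the limit in that sample only, and Sars2 in none. Iars2 thus went opposite ways on the 2 designs, and its probe set above the limit on all arrays is the one on MOE430B. Histidine's Hars2 read 673, 996 and 392, 2.09-fold lower in sample 5, while Ears2 (379, 404 and 273), Fars2 (1019, 1413 and 922) and Pars2 (581, 1083 and 697) differed by less than 1.5-fold. On MOE430B, Mars2 read 511, 158 and 808, Nars2 1087, 1016 and 503 and Yars2 541, 1247 and 1202. Ears2 there read 72.1, 239 and 75.1, and Aars2 388, 449 and 412. Of these 5, Mars2 was past 1.5-fold higher in sample 5, and Nars2 and Ears2 as far lower.

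Probe sets of 1 mitochondrial gene often disagreed where signals were weak. On MOE430A 6 of 13 mitochondrial probe sets were highest in sample 5, where 30.3% of all were, and on MOE430B 5 of 19, where 33.0% of all were. The second probe set of Nars2 read 241, 1024 and 1254, a difference of 1.34 in sample 5 against -1.06 on the brighter one. Another of Ears2 on MOE430A read 154, 32.1 and 660, and another of Fars2 6.64, 10.2 and 86.2, both highest in sample 5, where the brighter probe set was lowest. Mars2 likewise read 94.5, 66.8 and 35.5 on its dimmer probe set, lowest in sample 5. Wars2 was the mitochondrial gene with 2 probe sets above the limit on all arrays, and these gave 0.22 and 0.18. Farsa, cytosolic, had 2 weaker probe sets on MOE430B, at 233, 1005 and 514 and at 760, 143 and 644, neither with sample 5 at an end.

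Partners for the same amino acid were set side by side within a design. On MOE430A, 9 pairings could be formed, which share Eprs and Fars2 between them, and in 8 the cytosolic gene had the larger difference in sample 5. The median gap was 1.56 on the log2 scale. Since the cytosolic genes were picked as high in sample 5, this count and gap partly restate that choice. For arginine, the only pairing with both genes above the limit, Rars stood at 2.03 and Rars2 at 0.43, a gap of 1.61. Gaps of 2.71 for Farsa and Fars2, 1.90 for Eprs and Ears2 and 1.52 for Hars and Hars2 rest on a mitochondrial gene below the limit. Farsa was below the limit on all arrays of MOE430A as well. The exception was serine, with Sars at 0.76 and Sars2 at 1.07. In samples 1 and 4 the cytosolic gene was above its partner in 1 of 9 pairings each, with median gaps of -0.62 and -0.78. The 3 differences of a gene sum to 0, so these counts are not independent of that in sample 5. On MOE430B the cytosolic gene was above in 3 of 3, with gaps of 0.70 for Wars and Wars2, both above the limit, 0.33 for Eprs and Ears2 and 0.19 for Mars and Mars2. Eprs and Ears2 were both lower in sample 5 there, at -0.47 and -0.81. Eprs, Ears2 and Mars2 were below the limit on all arrays of this design.

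**Figure D3:**
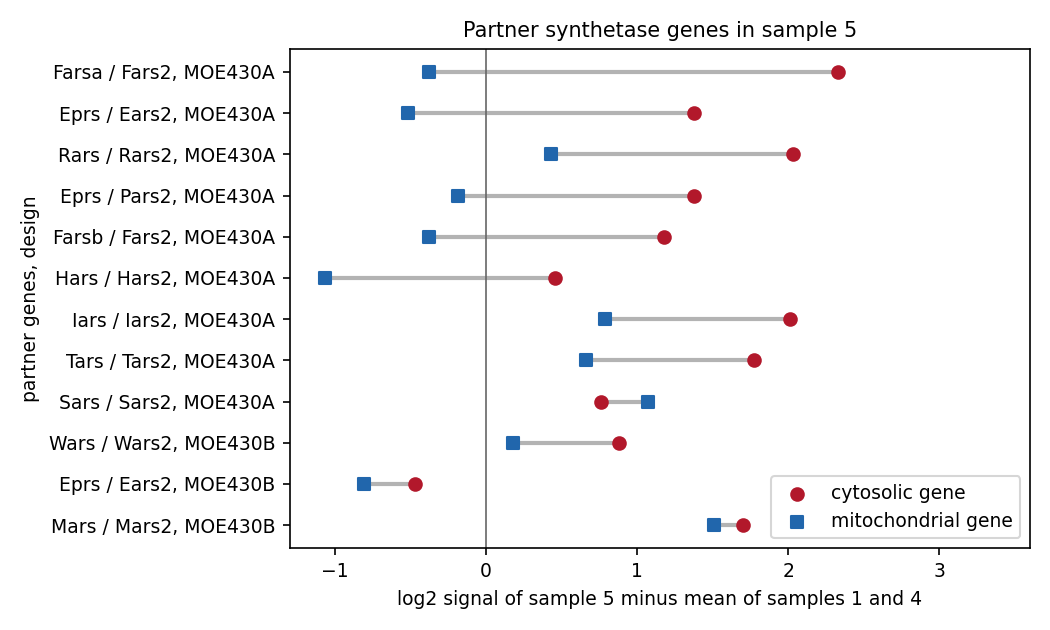
Log2 difference of sample 5 from the mean of samples 1 and 4 for cytosolic genes (circles) and their mitochondrial partners (squares), 1 row per pairing and design. The circle lies right of the square in 8 of 9 rows of MOE430A, all but Sars and Sars2, and in 3 of 3 rows of MOE430B. Both genes were above the background limit only for Rars and Rars2 on MOE430A and Wars and Wars2 on MOE430B.

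Genes that work beside the synthetases were listed by function and described in the same way. Of all measured genes, 20.1% on MOE430A and 24.8% on MOE430B were at least 1.5-fold higher in sample 5, and 26.4% and 24.8% as much lower. The scaffold of the multisynthetase complex was highest in sample 5 in all 3 genes, and 2 of 3 passed 1.5-fold. Eef1e1 read 633, 1135 and 4303 in samples 1, 4 and 5, 5.08-fold higher in sample 5 and above the limit there only. Aimp2 read 3086, 3219 and 5099 (1.62-fold), and Aimp1 3870, 3725 and 5369 (1.41-fold). Elongation factor genes, which take charged tRNA to the ribosome and drive it along, had 0 of 5 past 1.5-fold on MOE430A, with a median of 0.40. Eef1a1, whose protein delivers the charged tRNA, stood at -0.35, the exchange factor gene Eef1b2 at 0.18 and Eef1d at 0.49.

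Of genes for tRNA processing and export, 12 of 20 on MOE430A were at least 1.5-fold higher in sample 5, against 20.1%, and 1 was lower. On MOE430B 4 of 8 were higher, against 24.8%, and 1 was lower. The tRNA exporter gene Xpot read 11497, 13118 and 42032 on MOE430B, 3.42-fold higher, and 858, 829 and 2040 on MOE430A (2.42-fold). Trnt1, which adds the CCA end that synthetases charge, read 450, 406 and 683 (1.60-fold), below the limit on all arrays. The tRNA methyltransferase genes Nsun2 and Trmt1 were 1.74-fold and 1.88-fold higher, Ssb, which binds new tRNA transcripts, was 2.16-fold higher, and Elac2, which trims the 3' end, differed by -0.03. Trmt1, Ssb and, on MOE430A, Xpot were above the limit in sample 5 only.

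Of other genes of mitochondrial translation on MOE430A, 2 of 15 were at least 1.5-fold higher in sample 5, against 20.1%, with a median of 0.19. On MOE430B 4 of 10 were, against 24.8%, with a median of 0.38. The elongation factor gene Tufm was 1.62-fold higher on MOE430B, at 3282, 4155 and 5987. Its exchange factor gene Tsfm read 2173, 1932 and 10910, 5.32-fold higher and far from the other samples. Mtfmt, which formylates the initiator tRNA, was 1.69-fold higher on MOE430B and below the limit on all arrays. Gatb and Gatc, of the enzyme that makes mitochondrial glutamine tRNA, differed by 0.19 and -0.38 on MOE430A, Gatb with signals far below the limit.

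**Figure D4:**
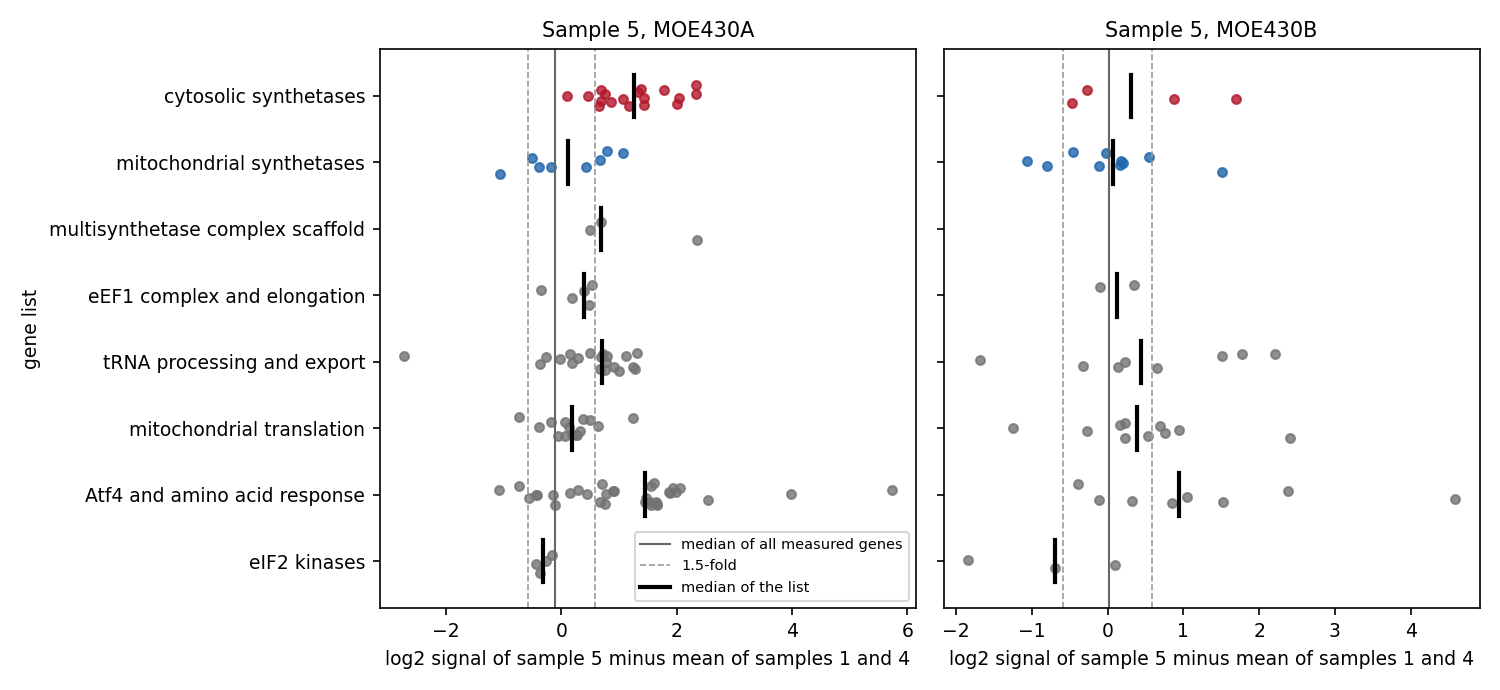
Log2 difference of sample 5 from the mean of samples 1 and 4 for each gene of 8 lists on MOE430A (left) and MOE430B (right), 1 point per gene. Thick bars are list medians, the solid line the median of all measured genes and dashed lines 1.5-fold; on MOE430A the cytosolic synthetases lie to the right of 0 in all 18 points, with a median of 1.25, and the mitochondrial ones on both sides, with a median of 0.12.

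The Atf4 and amino acid response list holds no aminoacyl-tRNA synthetase. On MOE430A it had 23 of 33 genes at least 1.5-fold higher in sample 5, against 20.1% of all measured genes, and 2 lower, against 26.4%. The median was 1.46. On MOE430B 5 of 8 were higher, against 24.8%, and 0 lower. Atf4 itself read 3810, 6257 and 17914 in samples 1, 4 and 5, 3.67-fold higher in sample 5, and Asns 1466, 4714 and 10476 (3.99-fold). Both were lowest in sample 1, as were most cytosolic synthetases. The stress factor gene Ddit3 read 1587, 1472 and 4659 (3.05-fold), the glutathione-degrading enzyme gene Chac1 1295, 1883 and 6530 (4.18-fold) and the serine synthesis gene Psat1 2139, 7054 and 11362 (2.93-fold). Trib3, a feedback inhibitor of Atf4, was 3.81-fold higher and above the limit in sample 5 only. Not all members went this way: the glutamine transporter gene Slc38a2, named after its values were seen, read 36388, 20979 and 13101, lowest in sample 5. Of the 4 eIF2 kinase genes on MOE430A, 0 passed 1.5-fold in sample 5 in either direction. On MOE430B 2 of 3 were at least 1.5-fold lower, Eif2ak2 at -0.70 and Eif2ak4 at -1.85, both with signals below the limit on all arrays.

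A list of growth genes known as Myc targets also had 11 of 15 at least 1.5-fold higher in sample 5 on MOE430A, against 20.1% of all measured genes, and 1 lower, with a median of 1.33. The nucleolar genes Ncl, Npm1 and Nop56 were 4.40-fold, 2.31-fold and 3.12-fold higher, Nop56 with signals above the limit in sample 5 only. On MOE430B 0 of 2 were higher and 1 was lower, Cad at -0.76, below the limit on all arrays. A probe set of Ncl there stood at -0.57, above the limit in sample 1 only. The fibroblast markers lay the other way, with 8 of 12 at least 1.5-fold lower in sample 5 on MOE430A, against 26.4% of all measured genes, and a median of -1.70. On MOE430B 2 of 5 were, against 24.8%, with a median of -0.32. Col1a1, Col1a2 and Col3a1 stood at -1.55, -1.97 and -2.44 on MOE430A. Of the 12 there, 2 were higher in sample 5, Pdgfra at 0.58 and Vim at 0.34, both named after their values were seen. Pdgfra, the receptor gene for a platelet-derived growth factor, was also higher on MOE430B, at 0.43. Sample 5 thus differed from samples 1 and 4 in several gene lists beside the synthetases.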

How the data were processed

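The authors deposited 1 MAS5 signal intensity per probe set and array, on a linear scale, per the submitters' processing notes; no version or settings were found, and the tables hold no detection calls. Run settings were read from the deposited array files for the fluidics station. There were 0 unused columns of sample values. The 2 designs were kept apart. Signals were set to at least 1 before log2, and a gene was given by its probe set of highest mean log2 signal. The filter, used as an alternative, kept genes whose mean log2 signal lay above the mean log2 limit, which was set on each array at the 95th percentile over a background list of 111 tissue-restricted genes (126 probe sets on MOE430A, 8 on MOE430B). The threshold of 1.5-fold describes and does not test, and with 3 samples of 1 group no test was made. The number of arrays limits the precision. Members, lists and the rule for named genes (all members; of other lists the first 3 measured and those past 1.5-fold, at most 6; exceptions are marked) were chosen with earlier results of these data known. Gene symbols and promoters came from RefSeq (GRCm38.p6); the files name no build. The code was tested on simulated data. Calculations used Python 3.11.15, numpy 2.4.6 and pandas 2.3.3.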

Additional observations from a re-analysis of the deposited data

How the results depend on the processing

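The cytosolic result on MOE430A kept its direction under every alternative listed here. The median difference of sample 5 was 0.91 to 1.35 over filters at the 90th, 95th and 99th percentile, a filter at the 75th percentile of the arrays (chosen after seeing the data), signals raised to the limit, quantile normalisation, centring, pseudocounts of 16 and 64, medians over probe sets, removal of _s_at and _x_at probe sets and removal of Gars and Kars. With sample 1 or sample 4 left out it was 0.99 and 1.38, and the genes past 1.5-fold were 13 and 16 of 18. Their number was 10 of 12 at the 99th percentile limit, where fewer genes remained, and 11 of 18 at 2-fold. The gap between the cytosolic and mitochondrial medians was 0.63 to 1.48 with all samples, and could not be formed at the 99th percentile limit, where no mitochondrial gene was left on MOE430A. On MOE430B, with 4 cytosolic genes, the cytosolic median was 0.30, and 0.26 to 0.88 over the alternatives with all samples. The gap on MOE430B was 0.23, and 0.15 to 0.72 over these alternatives.

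The mitochondrial median on MOE430A had no stable sign. It was 0.43 with the filter at the 95th percentile or at the 75th percentile of the arrays, which left 1 gene, 0.58 with medians over probe sets, 0.55 without _s_at and _x_at probe sets and -0.56 with signals raised to the limit, where the lower limit of sample 5 enters. It was -0.29 without sample 1 and 0.21 without sample 4. Its genes past 1.5-fold numbered 0 under the 90th, 95th and arrays' 75th percentile filters and with raised signals, 1 at 2-fold, and 4 of 8 with medians over probe sets and without _s_at and _x_at probe sets. With sample 1 or sample 4 left out there were 3, and the gap was 1.28 and 1.17.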
